A study of Mus musculus with 18 samples.

Results

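The 37 genes carried by the mouse mitochondrial genome were followed across 18 RNA sequencing libraries of colon epithelium. They were chosen by name, as every gene whose symbol starts with mt-, and made up 37 of the 52636 genes listed in each of the deposited tables. They comprised 13 protein-coding, 2 ribosomal RNA (rRNA) and 22 transfer RNA (tRNA) genes. The study asked what the receptor Olfr78 does in the epithelium of the colon. Libraries came from sorted epithelial cells of the Olfr78-GFP line, in which a GFP cassette replaces the coding exon of the receptor, and from whole crypts. The Epcam+ve/GFP-ve group held 2 samples of cells of the same WT mouse. The Epcam+ve/GFP+ve groups held 2 heterozygous (HE) pools, which keep 1 receptor allele, and 2 homozygous (Olfr78 KO) pools, each pool made from 2 adult mice. Crypts of the same line came from 2 WT and 5 Olfr78 KO mice. Crypts of a second line, deposited as a separate table, came from 3 eControl mice, labelled HE/WT, WT/HO and HE/WT, and 2 eKnockout (eKO) mice, labelled HE/HO and WT/HO. In that line the receptor gene is flanked by recombination sites and Cre is driven by the Vil1 promoter, which is active throughout the intestinal epithelium. The eControl mouse 2 and the library labelled eKO mouse 2 carried the same genotype label. If the labels give Vil1-Cre first and the receptor gene second, WT/HO is a genotype that the study lists among its controls. The library was kept in the group of its title. The labels name no treatment.

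Mitochondrial DNA is a small circle present in many copies per cell. Both of its strands are transcribed into long precursor RNAs, from which the tRNAs are cut out, and in this way most of the messenger and ribosomal RNAs between them are released. The protein-coding genes encode core subunits of the respiratory chain and of ATP synthase, while the other subunits come from nuclear genes. The rRNAs and tRNAs serve the ribosomes inside the mitochondrion. Fragments of mitochondrial DNA have also been copied into the nuclear chromosomes during evolution, and RNA reads from a well-preserved copy and from the original gene cannot be told apart.

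Such a copy bears on 13 of the 37 genes. In the GENCODE M21 transcripts of GRCm38, the stretch chrM:6390-11042 was matched by annotated genes within chr1:24611535-24616188 on the minus strand. It contained 11 of the mitochondrial genes whole, 6 protein-coding (mt-Co2, mt-Atp8, mt-Atp6, mt-Co3, mt-Nd3 and mt-Nd4l) and 5 tRNAs (mt-Ts1, mt-Td, mt-Tk, mt-Tg and mt-Tr). mt-Co1 and mt-Nd4 lay partly in it, and the other 24 genes lay outside. The chromosome 1 genes Gm28661 (mt-Co2), Gm10925 (mt-Atp6), Gm28437 (mt-Co3) and Gm10222 (mt-Nd4l) were identical to their mitochondrial counterparts over 681, 678, 783 and 294 aligned bases. Gm28439 was identical to the 876 bases at the start of mt-Nd4, which is 1378 bases long. Gm29216 covered the last 483 of the 1545 bases of mt-Co1 and differed at A1066T, counted from the start of the gene. Gm28438 aligned with mt-Nd3 over 345 bases and differed at T3C, counted in the same way, which lies at chrM:9461. The starts of this pair are shown because that base, given in capitals, is the only one that separates them over the aligned length.
mt-Nd3, chrM:9459-9518, plus strand: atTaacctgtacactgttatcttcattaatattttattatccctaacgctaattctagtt
Gm28438, chr1:24613060-24613119, minus strand: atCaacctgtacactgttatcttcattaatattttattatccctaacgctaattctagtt
The chromosome 1 stretch was 4654 bases long against 4653 in the mitochondrial genome, and the added base fell between chrM:9803 and chrM:9877. That interval holds mt-Tr, the tRNA for arginine, which is shown with its run of 8 A bases in capitals.
mt-Tr, chrM:9808-9875, plus strand: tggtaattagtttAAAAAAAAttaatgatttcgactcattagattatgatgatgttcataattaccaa
mt-Atp8 is shown because it had the largest change between sorted cells, and because its last 43 bases, in capitals, are also the first 43 bases of mt-Atp6, so that reads there can belong to either gene.
mt-Atp8, chrM:7766-7969, plus strand: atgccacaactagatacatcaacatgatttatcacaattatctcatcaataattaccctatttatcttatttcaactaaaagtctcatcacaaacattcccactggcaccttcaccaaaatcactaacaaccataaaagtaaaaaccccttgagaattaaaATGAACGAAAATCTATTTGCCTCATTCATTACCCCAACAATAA
mt-Tk, the tRNA for lysine that lies just before mt-Atp8, is shown as the member nearest to 0 in every group, with no base in capitals.
mt-Tk, chrM:7700-7764, plus strand: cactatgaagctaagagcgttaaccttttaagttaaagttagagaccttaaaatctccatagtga
No separate gene is annotated for the chromosome 1 copy of mt-Atp8 or of the tRNAs in the stretch. Copies of lower identity existed elsewhere, among them Gm13340 on chromosome 2, which matched mt-Co1 at 97.6%, and Gm13341 on the same chromosome, which matched mt-Co2 at 95.9%. Whether reads with several mapping places were counted is not given in the sources used here, so the levels of the 13 genes in or partly in the stretch are uncertain.

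All values are reads per gene scaled by the authors to 20000000 reads per library. The sorted libraries rested on 532704 to 2237475 reads on genes and the crypt libraries on 6175299 to 10995300. In KO pool 1, the shallowest library, 1 read was worth 37.5 scaled reads, against 8.94 to 13.3 in the other sorted libraries and 1.82 to 3.24 in crypts. *Olfr78* was at 4822 and 4401 in HE pools and at 977 and 837 in KO pools. It was at 88 and 111 in WT crypts and at 7 to 42 in KO crypts, while eControl crypts had 105, 61 and 124, eKO mouse 1 had 21 and the library labelled eKO mouse 2 had 73. The labels call all sorted samples enteroendocrine. The 12 enteroendocrine markers summed to 14286 and 14428 in the Epcam+ve samples, close to the 10216 and 17347 of WT crypts, and to between 368670 and 1146345 in the GFP+ve pools, so the markers went against this label for the Epcam+ve samples. The KO pools differed in other cells too, with the 9 goblet cell markers at 63417 in pool 1 and at 338701 in pool 2. Of the 9 leukocyte and stromal markers, 2 were at 0 in both Epcam+ve samples and in both HE pools, and 4 in both KO pools, and their sum stayed between 467 and 1803 in the sorted libraries.

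Levels per kilobase of gene separated the mitochondrial genes by their place in the genome more than by the complex they belong to. In WT crypts the 7 protein-coding genes outside or partly in the copied stretch had mean levels per kilobase from 89979 for mt-Nd4, a complex I subunit, to 334293 for mt-Co1, the catalytic subunit of cytochrome c oxidase, with a median of 161959. The 6 protein-coding genes wholly inside it had mean levels per kilobase from 438 for mt-Co2 to 8384 for mt-Nd3, with a median of 653. The ranges did not overlap, although mt-Co1, mt-Co2 and mt-Co3 are subunits of the same enzyme. Both rRNAs lay among the former, at 167226 per kilobase for mt-Rnr1 (12S) and 156357 for mt-Rnr2 (16S). The same separation was present in the Epcam+ve samples, where the genes in the stretch reached from 2835 per kilobase for mt-Nd4l to 38422 for mt-Atp8 and the others from 88044 to 355486. In the HE pools the corresponding ranges were 845 to 4589 and 63842 to 221404. The part of read counting in this separation was not tested. The tRNAs, which are short for this library type, ranged in WT crypts from a listed 0 for mt-Tk to 104075 per kilobase for mt-Ty, the tRNA for tyrosine, with a median of 37142.

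**Figure D1:**
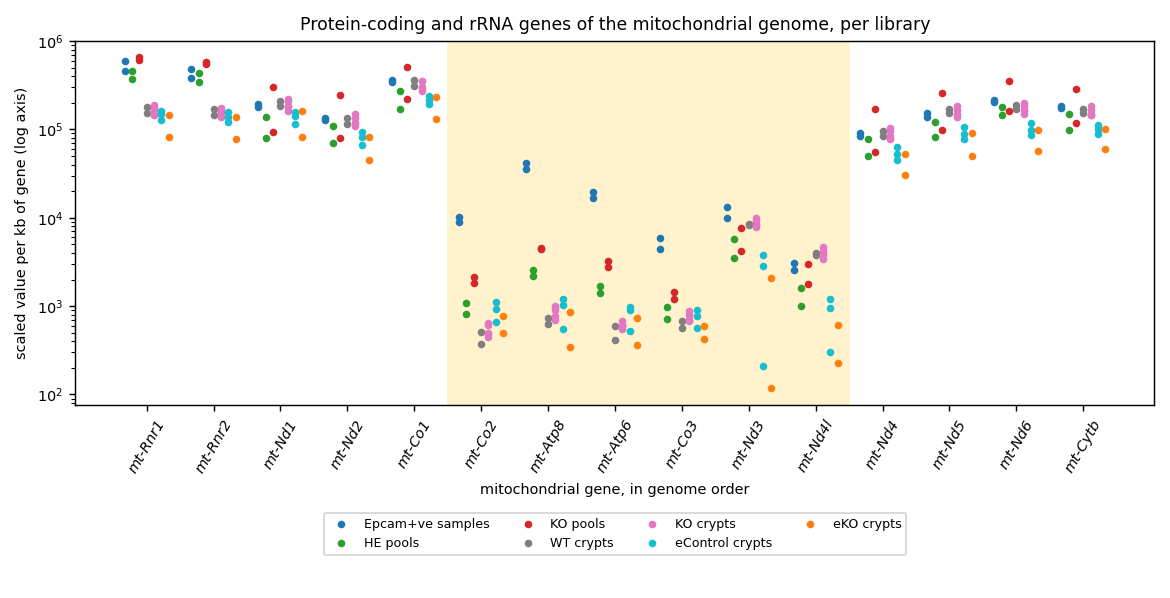
Level per kilobase of gene (log axis) of the mitochondrial protein-coding and rRNA genes, ordered along the genome, 1 point per library, coloured by group. Yellow shading marks the genes wholly in the copied stretch, whose means in WT crypts were 438 to 8384 scaled reads per kilobase, while those of the other genes and the rRNAs were 89979 to 334293.

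The comparison of HE pools with Epcam+ve samples asked how receptor-expressing cells differ from epithelial cells as a whole. The Epcam+ve cells came from a WT mouse without the GFP cassette, so the gate did not remove receptor-expressing cells. *Olfr78* was at 135 and 21 in these samples. Genotype and mouse differed along with cell type and cannot be told apart from it. The genes of ATP synthase and of cytochrome c oxidase that lie in the copied stretch were lower in HE pools, and the group of mitochondrial genes as a whole leaned the same way. mt-Atp8, an ATP synthase subunit, was at 7241 and 8435 in Epcam+ve cells and at 449 and 521 in HE pools. mt-Atp6, the subunit that forms the proton channel of ATP synthase, was at 11451 and 13376 against 956 and 1147. mt-Co2, which receives electrons from cytochrome c, was at 6132 and 6894 against 553 and 747. The Epcam+ve values stood far above those of the pools for these 3 genes. Whole WT crypts were lower still, with mt-Atp8 at 150 and 129, mt-Atp6 at 408 and 283 and mt-Co2 at 347 and 252. HE pools were not tested against crypts, which were prepared differently. The share of all genes whose groups do not overlap was not counted, but 23.8% had a limma adjusted p under 0.05. mt-Co3, a structural subunit of the same oxidase, was at 3487 and 4572 against 564 and 761. A gene was called here when limma gave an adjusted p under 0.001 and a log2 fold change beyond 2, and 4 of the 37 mitochondrial genes were called, all lower, where 0.171% of the 16355 genes tested were called lower. The log2 fold changes were -3.99 for mt-Atp8 (SE 0.20, limma adjusted p = 1.21e-05) and -3.55 for mt-Atp6 (SE 0.19, limma adjusted p = 1.75e-05). They were -3.32 for mt-Co2 (SE 0.21, limma adjusted p = 4.53e-05) and -2.59 for mt-Co3 (SE 0.24, limma adjusted p = 0.000305). When the spread was not let to vary with expression none of the 4 was called, as were 0 of all 16355 genes, and without HE pool 1 the count rose to 7, where 7.91% of all genes were then called. Less of these RNAs per cell and a different mix of cells cannot be told apart in bulk libraries. All 4 genes lie in the copied stretch, and the part of read counting in their differences was not tested.

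The complex I subunits in the stretch had smaller differences. mt-Nd3 was at 3424 and 4603 in Epcam+ve cells and at 1980 and 1214 in HE pools, with a log2 fold change of -1.35 (limma adjusted p = 0.00906). mt-Nd4l was at 769 and 915 against 472 and 294, at -1.15 (limma adjusted p = 0.0321). Neither reached the fold or the adjusted p required for a call.

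Outside the stretch the differences were smaller again. mt-Co1 was at 561899 and 536553 in Epcam+ve cells and at 420082 and 264056 in HE pools. mt-Cytb, the only mitochondrially encoded subunit of complex III, was at 209012 and 197353 against 171517 and 112466. mt-Nd1, a complex I subunit, was at 183269 and 169359 against 133868 and 76369. The HE pools differed widely from each other for these 3 genes. The complex I subunits mt-Nd2, mt-Nd4, mt-Nd5 and mt-Nd6 completed this set of 7. Its log2 fold changes ran from -0.80 for mt-Nd1 to -0.37 for mt-Nd6, the only protein-coding gene transcribed in the opposite direction, with a median of -0.55 and a lowest limma adjusted p of 0.101. With 2 samples a group, differences of this size did not pass the test. mt-Rnr1 was at 442873 and 563612 against 359396 and 439182, and mt-Rnr2 at 609157 and 753486 against 537380 and 679315, where the groups overlapped. Their log2 fold changes were -0.33 and -0.17. The median over the 11 genes wholly in the stretch was -1.37 and over the 26 others -0.64, beside -0.05 over all genes tested. Of the 37 genes, 36 had a negative log2 fold change and 25 had an unadjusted limma p under 0.05, where 37.2% of all genes passed.

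Among the 22 tRNAs, none was called, 21 had a negative log2 fold change and the median was -1.11. The exception was mt-Te, the tRNA for glutamate and the one with the highest mean over the 18 libraries, at 12166 and 11979 in Epcam+ve cells and 13245 and 13655 in HE pools, a log2 fold change of 0.16. mt-Ty was at 12747 and 15307 against 6110 and 3001, at -1.70 (limma adjusted p = 0.00604). mt-Tl1, the tRNA for leucine that follows mt-Rnr2, was at 4693 and 4942 against 2290 and 1134, at -1.57 (limma adjusted p = 0.00803). mt-Ti and mt-Tp, the tRNAs for isoleucine and proline, had log2 fold changes of -0.61 and -1.25. mt-Tv, the tRNA for valine that lies between the rRNAs, was chosen after its values were seen. It was at 519 and 1223 against 81 and 107, at -2.97, and was the fifth gene called by both edgeR and DESeq2, each of which called 5. mt-Tk, also chosen after its values were seen, was at 54 and 52 against 0 in both HE pools. A floor of 3 reads amounted to at least 34.5 in those pools, so the loss of mt-Tk was barely measurable at this depth.

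**Figure D2:**
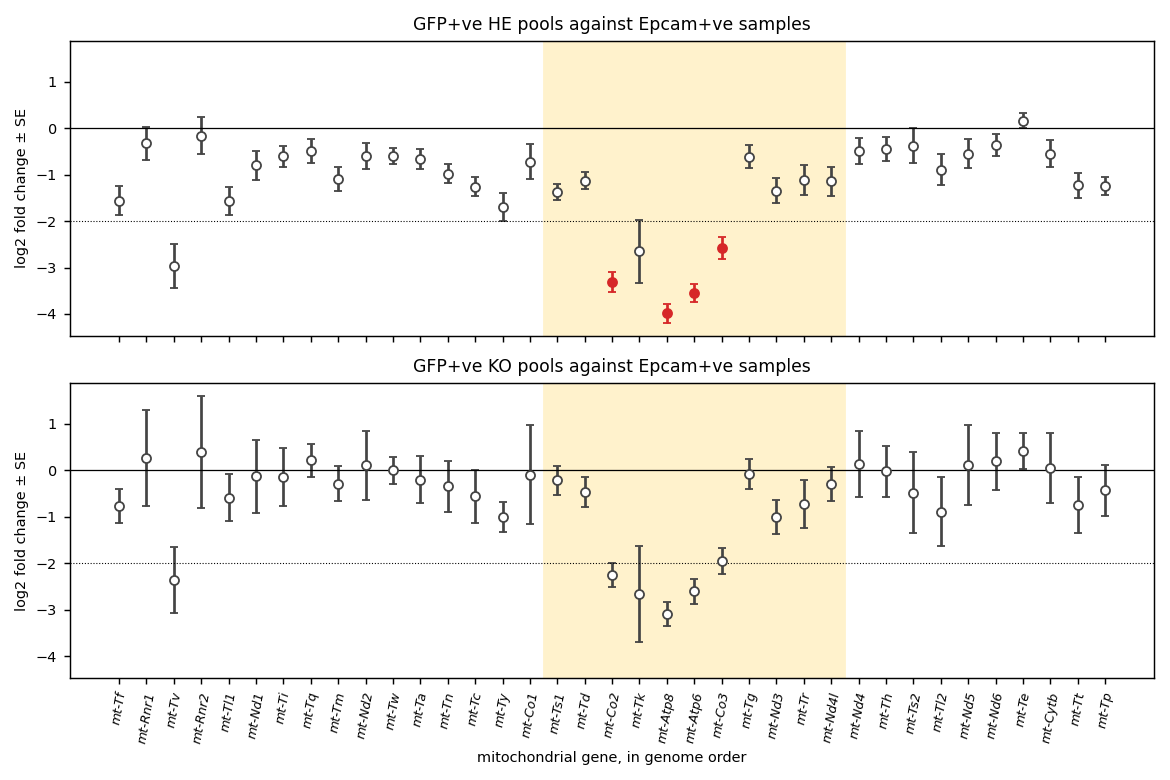
Log2 fold change with its standard error for each mitochondrial gene in genome order, for HE pools (upper panel) and KO pools (lower panel) against the same Epcam+ve samples. Yellow shading marks the genes wholly in the copied stretch, filled red points are called, and the dotted line marks -2. In the HE pools mt-Atp8 (-3.99), mt-Atp6 (-3.55), mt-Co2 (-3.32) and mt-Co3 (-2.59) are called.

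The chromosome 1 genes moved unevenly in the same comparison. Gm28439, the copy of the start of mt-Nd4, was at 3397 and 4387 in Epcam+ve cells and 415 and 494 in HE pools, and Gm10222, the copy of mt-Nd4l, was at 2021 and 2661 against 277 and 374. Both were called lower, at log2 fold changes of -3.06 and -2.81 (limma adjusted p = 9.97e-05 and 0.000365). The other 5 were not called, with log2 fold changes from -0.54 for Gm28438 to 0.03 for Gm28437. When each gene was summed with its copy, the log2 fold change of mt-Atp6 was -2.20, that of mt-Co2 -2.54 and that of mt-Nd4l -2.14, and all 3 were called by limma. That of mt-Co3 was then -1.28 and was not called (limma adjusted p = 0.00954). mt-Atp8 has no annotated copy to be summed with.

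Several measures of cell type and RNA moved with this contrast. Of the 12 enteroendocrine markers, 9 were called higher in HE pools, *Tph1*, *Chga* and *Neurod1* with the smallest p, and the median log2 fold change of the list was 6.10. Colonocyte, goblet, and stem and cycling cell markers had medians of -1.77, -1.79 and -1.93, with 1 of 10 called higher (*Krt20*), 1 of 9 called lower (*Spink4*) and 0 of 7 called. The 6 pan-epithelial markers had a median of -0.06 and 0 called. Of the leukocyte and stromal markers 3 passed the filter and 0 were called. The 5 long noncoding RNAs known to stay in the nucleus summed to 176870 and 194738 in Epcam+ve cells and 457309 and 528221 in HE pools, with a median of 0.90 and 0 called. Of the 12 immediate early and heat-shock genes, 3 were called higher (*Hspa1b*, *Hspa1a* and *Hsph1*), with a median of 1.35. Their part in the mitochondrial differences was not tested.

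The KO pools were set against the same Epcam+ve samples, so this comparison shares its controls with the one above. mt-Atp8 was at 902 and 918 in KO pools, mt-Atp6 at 2178 and 1883, mt-Co2 at 1465 and 1244, and mt-Co3 at 939 and 1128. The log2 fold changes were -3.09, -2.61, -2.26 and -1.95, with limma adjusted p of 0.0175, 0.024, 0.0292 and 0.0498. By the same rule 0 of the 37 genes were called by limma, as were 0% of the 15779 genes tested. At an unadjusted p under 0.05 there were 8 of the 37, where 18.5% of all genes passed. Of the 37, edgeR called 0 and DESeq2 3, and the share of all genes called by DESeq2 is not given here. The 7 protein-coding genes outside or partly in the stretch lay between -0.13 and 0.19 and the rRNAs at 0.27 and 0.39. The median was -0.29 over the 37 genes and -0.26 over all genes. With single libraries left out, 2 were called without Epcam+ve sample 1, 1 without Epcam+ve sample 2, 3 without KO pool 1 and 6 without KO pool 2. The shares of all genes then called were 1.18%, 1.03%, 1.41% and 11.9% in the same order.

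KO pools were also compared directly with HE pools, which asked what loss of the receptor does to the cells that would express it. Neither group was tight. The 7 protein-coding genes outside or partly in the stretch were 2.20 to 3.28 times as high in KO pool 2 as in KO pool 1, whereas the rRNAs were at 0.931 and 0.937 times. mt-Nd5, a complex I subunit, was at 219500 and 150844 in HE pools and at 179012 and 466122 in KO pools, so that the groups overlapped. mt-Nd2 at 112120 and 72262 against 83086 and 257463 overlapped too. mt-Rnr1 was at 359396 and 439182 against 625188 and 582077, and mt-Rnr2 at 537380 and 679315 against 916157 and 858329. The groups did not overlap for the rRNAs, but the share of all genes without overlap was not counted. Calls needed a limma adjusted p under 0.05, and 0 of 36 genes passed, with 0% of the 11892 genes tested. At an unadjusted p under 0.05 there were 4 of the 36, mt-Co2 (log2 fold change 1.06), mt-Atp6 (0.94), mt-Atp8 (0.90) and mt-Ts1 (1.16, chosen after its values were seen), where 4.23% of all genes passed, and edgeR and DESeq2 each called 0. The lowest limma adjusted p among the 36 was 0.931. By the criterion of the study's methods, a difference of means beyond 2 times the mean SD and a ratio beyond 1.5-fold, 8 of the 36 genes were higher (mt-Atp6, mt-Atp8, mt-Co2, mt-Co3, mt-Rnr1, mt-Tf, mt-Ts1 and mt-Tw), where 3.23% of all genes were higher. The median log2 fold change was 0.64 over the 36 genes, 35 of them positive, and -0.18 over all genes. Without KO pool 2 the median of the 36 was -0.01 and 0 were called, and without KO pool 1 it was 1.24 and 9 tRNAs were called, where 2.8% of all genes were. The goblet marker sums of the KO pools given above differed in the same direction as these protein-coding genes. So did those of colonocyte markers (22606 and 56652) and of nuclear complex I subunits (14320 and 31091), among other lists. Sums of immediate early and heat-shock genes (175713 and 91710) and of nuclear-retained RNAs (466640 and 371270) went the other way, as did the enteroendocrine markers. The enteroendocrine markers summed to 883721 and 1146345 in HE pools and to 628236 and 368670 in KO pools, which did not overlap, with a median log2 fold change of -0.96, 2 of the 12 positive and 0 called. The part of any of these lists was not tested.

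In crypts of the Olfr78-GFP line, no difference between KO and WT was detected for any of the 36 mitochondrial genes tested. mt-Tk did not pass the filter. mt-Co1 was at 560446 and 472519 in WT crypts and from 419745 to 549635 in KO crypts, with values of 548578, 549635, 471713, 445003 and 419745. mt-Atp6 was at 408 and 283 in WT crypts and at 398, 460, 409, 417 and 372 in KO crypts. mt-Nd3 was at 2954 and 2881 against 3425, 2744, 2912, 3209 and 2873. The groups overlapped for all 3. The rRNAs lay at 172010 and 147391 against 137737 to 180749 for mt-Rnr1 and at 266838 and 227875 against 220610 to 277930 for mt-Rnr2, with log2 fold changes of -0.03 and -0.01. The call rule for crypts was a change beyond 1.5-fold with a limma adjusted p no higher than 0.2, by which 9.48% of the 15975 genes tested were called and 0 of the 36 mitochondrial genes. At an unadjusted p under 0.05 there were also 0 of the 36, where 25.9% of all genes passed, and edgeR and DESeq2 each called 0. The log2 fold changes ran from -0.32 for mt-Ts1 to 0.34 for mt-Tl2, which were named after their values were seen, with SEs from 0.09 to 0.20, a median of -0.01 and an all-gene median of 0.03. The 6 protein-coding genes wholly in the stretch were all positive, from 0.04 to 0.31, and 6 of the 7 others negative, in a range from -0.09 to 0.00.

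**Figure D3:**
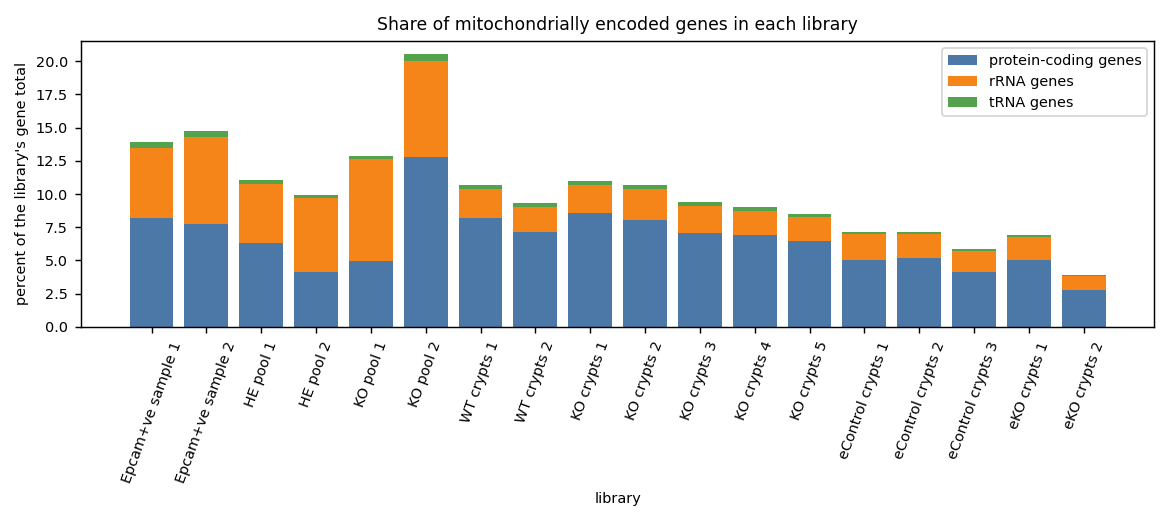
Percent of each library's reads that fell on mitochondrial protein-coding, rRNA and tRNA genes. Each bar is 1 library, grouped as labelled, and the bars start at 0. The total reached from 3.88% in the library labelled eKO mouse 2 to 20.5% in KO pool 2.

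The 37 genes took 10.7% and 9.31% of the reads in WT crypts and 11.01%, 10.7%, 9.38%, 8.998% and 8.53% in KO crypts. The difference of means was -0.296 percentage points (exact permutation test over samples, two-sided p = 0.762, smallest possible 0.0952). In the second line the shares were 7.16%, 7.15% and 5.82% in eControl crypts and 6.93% and 3.88% in eKO crypts, a difference of -1.31 points (exact permutation test, p = 0.4, smallest possible 0.2). Among sorted cells, Epcam+ve samples had 13.9% and 14.8%, HE pools 11.1% and 9.92% and KO pools 12.9% and 20.5%, where 2 against 2 samples cannot give an exact permutation p below 0.333. The HE pools lay below all other sorted libraries and the KO pools on both sides of the Epcam+ve samples. The 95% Wilson interval of the least deeply read share, that of KO pool 1, was 12.80% to 12.98%. Such intervals cover counting error only, and reads copied by PCR are not independent. The make-up of the share differed more than its size. rRNA reads per protein-coding read were 0.25 to 0.29 in crypts of the Olfr78-GFP line and 0.35 to 0.40 in crypts of the second line. Epcam+ve samples had 0.64 and 0.85, HE pools 0.71 and 1.36 and KO pools 1.56 and 0.56, so that the sorted libraries all lay above the crypts and differed widely within a group. The tables were normalised separately, and these levels set side by side carry no test between them.

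In crypts of the second line all 36 genes tested were lower on average in eKO crypts. The rRNAs and the protein-coding genes outside or partly in the stretch were lowest in the library labelled eKO mouse 2, whose *Olfr78* level lay within the eControl range. mt-Co1 was at 366081, 334526 and 301255 in eControl crypts, at 356779 in eKO mouse 1 and at 204257 in the library labelled eKO mouse 2. mt-Rnr2 was at 249727, 218662 and 191066 against 219093 and 123872. In this library the 7 protein-coding genes outside or partly in the stretch were at 0.556 to 0.601 times the mean of the other 4 libraries and both rRNAs at 0.564 times, while eKO mouse 1 lay within the eControl range for both genes. Of the 36 genes 0 were called by limma, with 0% of the 15401 genes tested, and edgeR and DESeq2 called 0. At an unadjusted p under 0.05 there were 4 tRNAs, mt-Td (log2 fold change -1.02), mt-Ta (-0.85), mt-Tn (-0.79) and mt-Te (-0.62), the middle pair chosen after their values were seen, where 0.825% of all genes passed. The median log2 fold change was -0.48 over the 36 genes against 0.03 over all genes. It was -0.04 without the library labelled eKO mouse 2 and -0.82 without eKO mouse 1.

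Within these crypts, a pair of libraries stood apart at the end of the copied stretch, whatever their group. mt-Nd3 was at 73 in eControl mouse 1 and 41 in eKO mouse 1, against 1323 and 1001 in eControl mice 2 and 3 and 715 in the library labelled eKO mouse 2. Gm28438, the copy that differs from mt-Nd3 at T3C, had the opposite order, at 1561 and 1362 in that pair and at 267, 145 and 79 in the other 3. The sums of mt-Nd3 and Gm28438 were 1634, 1590 and 1146 in eControl crypts and 1403 and 794 in eKO crypts, so the pair no longer stood apart. The copy held 95.5% and 97.1% of the sum in the pair and 9.95% to 16.8% in the other 3 libraries. mt-Nd4l had the same order, at 89 and 67 in the pair and 358, 282 and 182 in the others. The tRNAs beside them, mt-Tg (glycine) and mt-Tr, chosen after their values were seen, also did. mt-Tg was at 139 and 87 in the pair and 603, 495 and 330 in the others. mt-Tr, the gene with the run of A bases shown above, was at 19 and 18 against 401, 310 and 206. In KO crypts Gm28438 was at 479 and 351 in mice 4 and 5 and at 174, 159 and 188 in mice 1 to 3. Gm10222 was at 449 and 351 against 169, 192 and 209. The mitochondrial genes did not turn with these copies. Over those 5 mice mt-Nd3 stayed between 2744 and 3425, mt-Nd4l between 1008 and 1384, mt-Tg between 975 and 1225 and mt-Tr between 1438 and 1837. The read sequences were not analysed here, and whether the mitochondrial genomes of these mice differ was not tested. The log2 fold change of mt-Nd3 in eKO against eControl crypts was accordingly unsure, at -1.33 with an SE of 1.39, and was 0.59 without eKO mouse 1.

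**Figure D4:**
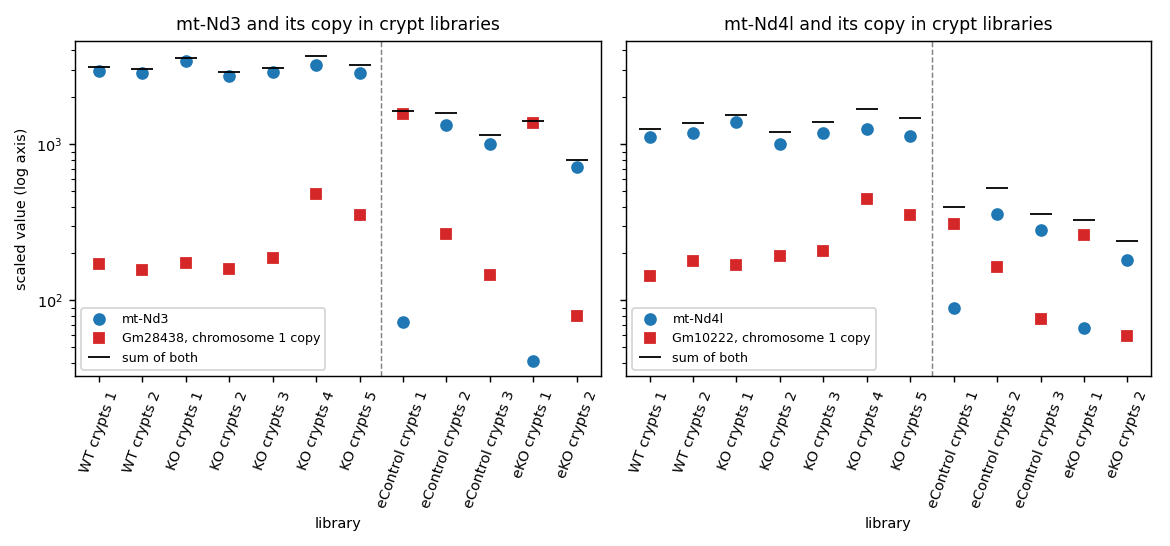
Levels of mt-Nd3 (left) and mt-Nd4l (right) as blue circles, of their chromosome 1 copies as red squares and of the sums as black bars, in each crypt library (log axis, scaled reads). A dashed line separates the 2 tables. In eControl mouse 1 and eKO mouse 1 the order turns, with mt-Nd3 at 73 and 41 below Gm28438 at 1561 and 1362.

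Both lines were put in 1 fit with the line as a term, and the library labelled eKO mouse 2 was counted as receptor-deficient. Its genotype label was that of eControl mouse 2. Between receptor-deficient and control crypts 0 of 36 genes were called by limma, where 0.0243% of the 16447 genes tested were called. At an unadjusted p under 0.05 there were 4 of the 36, where 7.7% of all genes passed, and edgeR and DESeq2 called 0. The median was -0.21. Without eKO mouse 1 limma called 2, the tRNAs for aspartate (mt-Td) and serine (mt-Ts1), where 6.92% of all genes were called. Whether the genotype effect differed between the lines was tested by the interaction, and it was called for 0 of 36 genes, where 0.0304% were called overall. At an unadjusted p under 0.05 there were 7 of the 36, where 8.77% of all genes passed, and edgeR and DESeq2 called 0. Here the median was -0.47, and 2 genes were called without eControl mouse 1, where 3.76% of all genes were. Without the library labelled eKO mouse 2 the count was 4, where 26.3% of all genes were called. The latter were mt-Nd3, mt-Nd4l, mt-Tg and mt-Tr, the genes of the pair of libraries described above.

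Sorted WT epithelium could be set against whole WT crypts, since both were in 1 table. Digestion, sorting, the RNA kit and the mouse differed with the groups and cannot be told apart. Both sorted samples came from 1 mouse. The genes in the stretch that were lower in HE pools were far higher in the sorted Epcam+ve samples than in WT crypts. mt-Atp8 was at 7241 and 8435 against 150 and 129, mt-Atp6 at 11451 and 13376 against 408 and 283, and mt-Co2 at 6132 and 6894 against 347 and 252. mt-Co3 was at 3487 and 4572 against 536 and 440. The groups were far apart for all 4. The GFP+ve pools were digested and sorted too, and had mt-Atp8 at 449 and 521 (HE) and at 902 and 918 (KO). By the rule for sorted cells 6 of the 37 genes were called, all higher, where 0.557% of the 15434 genes tested were called higher. The log2 fold changes were 5.71 for mt-Atp8 (SE 0.15, limma adjusted p = 9.42e-07) and 5.15 for mt-Atp6 (SE 0.18, limma adjusted p = 2.67e-06). They were 4.41 for mt-Co2, 3.01 for mt-Co3, 2.78 for mt-Tf, the tRNA for phenylalanine, and 2.09 for mt-Td, with limma adjusted p from 4.9e-06 to 0.000696. mt-Tf was at 930 and 1665 against 160 and 186, and mt-Td at 3567 and 3873 against 1002 and 747. With no filter on low values, or with the spread not let to vary with expression, 0 of these and 0 of all genes tested were called. Without Epcam+ve sample 2 the count was 3, where 0.13% of all genes were called. The rRNAs were at 1.65 and 1.46, past the p threshold for mt-Rnr1 (limma adjusted p = 0.00088) but not the fold. The 7 protein-coding genes outside or partly in the stretch lay between -0.15 and 0.23, beside an all-gene median of -0.26. Their sign turned with the scaling for mt-Nd1, mt-Nd4 and mt-Nd5, from -0.09, -0.03 and -0.15 to 0.17, 0.23 and 0.11 with median-of-ratios scaling. Of the chromosome 1 copies, Gm28439 (4.41), Gm10222 (3.77) and Gm10925 (2.16) were called higher. The 12 immediate early and heat-shock genes had a median of 0.86, with 2 called higher (*Fosb* and *Atf3*) and 2 lower (*Hspa1a* and *Hspa1b*), and the 10 colonocyte markers a median of -1.01 with 1 called lower (*Aqp8*), all 5 named after their values were seen. Of the leukocyte and stromal markers 6 were tested, with a median of -2.21 and 0 called. The part of these lists in the mitochondrial differences was not tested.

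The nuclear genes that encode the remaining subunits of the 5 complexes were followed beside the mitochondrial ones. In the HE pools 75 of the 76 subunits had a negative log2 fold change against the Epcam+ve samples, with a median of -0.96 and 0 called by limma, although 51 had a limma adjusted p under 0.05, where 23.8% of all genes passed. By complex the medians were -0.88 for complex I (36 genes), -1.11 for complex II (4), -0.94 for complex III (9), -1.09 for complex IV (12) and -0.997 for complex V (15). Complex II, succinate dehydrogenase, has no mitochondrially encoded subunit. In the KO pools, against the same samples, 75 of 76 were negative too, with a median of -1.11, 0 called, and none with a limma adjusted p under 0.05. Between KO and HE pools 72 were tested, with a median of -0.09 and 0 called. In KO crypts all 76 were negative against WT, with a median of -0.32, 16 at a limma adjusted p under 0.05, where 7.37% of all genes passed, and 1 called, *Ndufc2* of complex I. The 7 mitochondrial protein-coding genes outside or partly in the stretch had a median of -0.05 in that comparison. Beside them in KO crypts, 3 of the 5 nuclear-retained RNAs were called higher and 8 of the 12 immediate early and heat-shock genes lower, and their part was not tested. In eKO crypts 56 of 76 subunits were positive, with a median of 0.07, and the difference between the lines was positive for 75 of 76, with a median of 0.37 and 0 called.

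**Figure D5:**
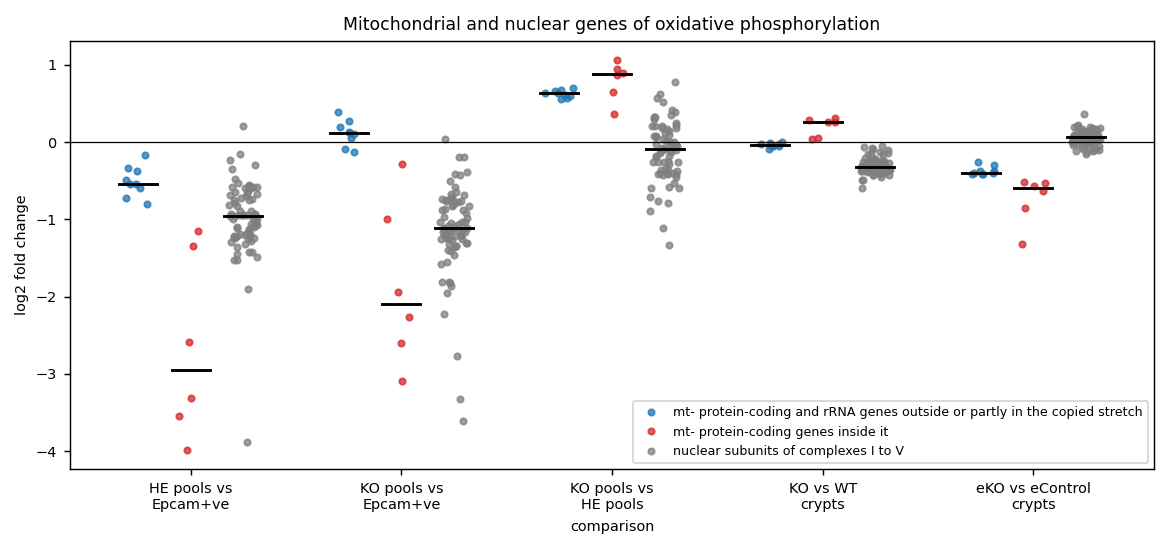
Log2 fold changes in 5 comparisons, 1 point per gene, with black bars at the medians. Blue points are mitochondrial protein-coding and rRNA genes outside or partly in the copied stretch, red points the protein-coding genes inside it and grey points the nuclear subunits of complexes I to V. In KO crypts against WT the nuclear subunits had a median of -0.32, and the blue points lay between -0.09 and 0.00.

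The machinery that serves mitochondrial DNA was measured at lower levels. Of the 34 genes of mitochondrial RNA synthesis and processing, 31 passed the filter between HE pools and Epcam+ve samples, with a median log2 fold change of -0.60 and 1 called, *Mterf4*, which takes part in assembly of the mitochondrial ribosome, at 3.06 (limma adjusted p = 0.000101). The 11 genes tested of mitochondrial DNA maintenance had a median of -0.61, and the 49 of the large subunit of the mitochondrial ribosome a median of -0.73, with 0 called in either list. In KO against WT crypts these lists had medians of -0.06 (RNA synthesis, 32 tested), 0.08 (DNA maintenance) and -0.26 (ribosome), with 0 called in each.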

How the data were processed

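Paired-end reads were mapped to GRCm38 with STAR and counted per gene with HTSeq by the authors, whose versions, strand setting and treatment of reads with several mapping places are not given in the sources used here. The authors deposited 2 tables of whole numbers, the reads per gene scaled to 20000000 per library and rounded up. For the sorted libraries these were taken as a signal the authors deposited from whole reads, and for crypts as a score the authors deposited. Dividing by the value of 1 read gave whole reads for 99.8% to 100.0% of values, to within the rounding. No value column was left without a sample.

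Genes were tested on log2(value + 10) with limma 3.58.1 and a trend of the spread, after a filter of 40 in at least 2 libraries (above 40 in all pools for KO against HE pools), adjusted over all genes tested by Benjamini-Hochberg. Log2 fold changes are on the log2(value + 10) scale and understate changes of low genes. Each comparison used its own groups. Thresholds for HE pools against Epcam+ve samples and for crypts came from the study's methods. The former were also used for KO pools against Epcam+ve samples and for these against WT crypts, and an adjusted p under 0.05 was chosen here for KO against HE pools, beside the study's criterion. Alternatives were edgeR 4.0.16 and DESeq2 1.42.0 on recovered reads, pseudocounts of 1 and 40, other scalings, no filter, no trend, a replicate block and each library left out. Sums with the nuclear copies were added after seeing the data. The scripts were tested on simulated data. Nuclear copies were found with blastn 2.17.0 among GENCODE M21 transcripts, at 90% identity over at least 60 bases. Of the 52636 genes 52403 were found in that annotation. All 13 protein-coding and 2 rRNA genes were described, the 5 most abundant tRNAs and those called, and other genes as lists, singly where called in HE pools (up to 3 a list). Lists covered nuclear subunits of complexes I to V, mitochondrial RNA synthesis, DNA maintenance and ribosome, nuclear-retained RNAs, immediate early and heat-shock genes and cell type markers. Members, lists and tests were chosen with earlier results of these data known. Separate mice or pools of mice stand behind the replicates, apart from the Epcam+ve samples of 1 mouse. In comparisons with these samples, p-values rest on the spread between samples of that mouse pooled with the spread of the other group. They hold no spread between mice for the Epcam+ve cells.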

Additional observations from a re-analysis of the deposited data

Results flagged for a closer look

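Among the 48 series of values tested in groups of 4 to 10 libraries, 2 held a library far from the others of its group, where chance flags about 1 in 20. In KO crypts mt-Tn, the tRNA for asparagine, was at 2866 in mouse 5 and between 3503 and 3722 in mice 1 to 4, and this gap made up 0.744 of the group's range. mt-Tk was at 3 in KO crypts mouse 1 and at 7, 8, 7 and 7 in mice 2 to 5, a gap of 0.8 of the range. With 1 read worth 2.76 in mouse 1, that value rests on 1 read.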

How the results depend on the processing

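Counts of called mitochondrial genes differed from those of the report as follows. Without a trend of the spread 0 were called in HE pools against Epcam+ve samples and 0 in Epcam+ve samples against WT crypts, where 0 were also called with no filter on low values. With no filter 1 gene was called in KO against WT crypts, where 3.03% of all genes were called. A pseudocount of 1 gave 3 and 5 in HE pools against Epcam+ve samples and in these against WT crypts. In the same comparisons edgeR gave 5 and 8 and DESeq2 5 and 7. Without a filter 3 were called in HE pools against Epcam+ve samples, where 0.409% of all genes were called. DESeq2 called 3 in KO pools against Epcam+ve samples, where the share of all genes it called is not given here. With each library left out in turn the counts were 4 to 7 (HE pools against Epcam+ve), 1 to 6 (KO pools against Epcam+ve), 0 to 9 (KO against HE pools), 0 to 2 (both lines), 0 to 4 (difference between lines) and 3 to 7 (Epcam+ve against WT crypts). A lone sample was assumed to vary like the other groups. Sample numbers were not taken as pairs, since the groups compared shared only 2. Deviations of same-numbered samples correlated at 0.59 and 0.36 in eKO against eControl crypts, where both mice 2 carry the same genotype label, and at 0.061 or below elsewhere. With the number as a replicate block, 5, 3, 0, 0, 0, 0 and 7 genes were called in the comparisons in the order of the design (HE and KO pools against Epcam+ve, KO against HE pools, KO against WT, eKO against eControl, both lines, Epcam+ve against WT crypts), and none could be made for the difference between lines. With crossed pairing of the pools (added after seeing the data), 1 gene was called in KO against HE pools. The shares of all genes called with a block or with crossed pairing are not given here. Without them these counts show nothing particular to the mitochondrial genes. The cause of these changes was not tested.

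The log2 ratio of the summed level of HE pools to Epcam+ve samples was -0.45, and -0.61 over protein-coding genes alone. That of KO to HE pools was 0.67, and 0.30 to 0.97 with a library left out, and that of eKO to eControl crypts -0.31, and -0.79 to 0.045. Of 1287 recomputed log2 fold changes 30 turned sign by more than the SE. The replicate block gave 0.13 (mt-Nd1), 0.15 (mt-Nd4), 0.11 (mt-Nd6) and 0.13 (mt-Rnr1) in KO against WT crypts. In Epcam+ve samples against WT crypts, mt-Nd1, mt-Nd4 and mt-Nd5 were 0.17, 0.23 and 0.11 with median-of-ratios scaling, 0.16, 0.22 and 0.10 with edgeR and 0.17, 0.22 and 0.11 with DESeq2, and mt-Nd4l summed with its copy was 1.26. That scaling moved the median of all genes there from -0.26 to -0.02, and from -0.26 to -0.07 and from -0.18 to -0.03 in KO pools against Epcam+ve samples and HE pools. With a library left out, KO pools against Epcam+ve samples gave -0.98 to 0.73 (mt-Nd1), -0.71 to 0.92 (mt-Nd2), -0.68 to 0.94 (mt-Nd4) and -0.66 to 0.092 (mt-Nd4l). KO against HE pools gave -0.18 to 1.53 (mt-Nd1), -0.12 to 1.52 (mt-Nd2), -0.081 to 0.79 (mt-Nd3), -0.18 to 1.44 (mt-Nd4) and -0.0053 to 1.14 (mt-Nd6). eKO against eControl crypts gave -0.76 to 0.015 (mt-Cytb), -0.75 to 0.24 (mt-Nd1), -0.80 to 0.063 (mt-Nd2), -3.24 to 0.59 (mt-Nd3), -0.80 to 0.0084 (mt-Nd4), -0.83 to 0.014 (mt-Nd5) and -0.82 to 0.0038 (mt-Rnr2). Over all genes, 287 were called in HE pools against Epcam+ve samples, 758 by edgeR and 691 by DESeq2.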
